A study of Mus musculus with 6 samples.

Results

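The genes described here are the heat shock chaperones of the cytosol and of mitochondria, with their co-chaperones and their transcription factors. They were chosen by gene symbol, as protein-coding genes of the HSP70, HSP110, small heat shock protein, HSP60, HSP10, DNAJA, DNAJB, DNAJC, BAG and HSF families, with 6 relatives that work inside the endoplasmic reticulum left out. The choice gave 75 of the 21980 protein-coding genes in the table, and 63 of the 75 had enough counts to be tested. The symbol pattern did not take in the cytosolic HSP90 genes Hsp90aa1 and Hsp90ab1, which are given below as neighbours in the pathway. It also kept 7 J proteins assigned here to the membrane of the endoplasmic reticulum, and Hsf2bp, which encodes a binding partner of HSF2 and is no heat shock factor, so that "cytosolic and mitochondrial" holds for most of the 75 and not for all.

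The libraries were polyA RNA of mouse liver, 3 labelled Atg14 HepKO (HepKO below) and 3 labelled wild-type (WT). Atg14 is a gene of the autophagy machinery, whose product directs a lipid kinase to the sites where autophagosomes form. No Cre line, strain, age, sex or diet is given in the sources used here. Nothing in the labels ties the samples of a group to separate animals, so p-values reflect only how far these samples spread. That spread may be technical, except that sex-linked counts given below show a different animal for HepKO replicate 1 than for the other HepKO libraries.

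HSP70 proteins bind and release unfolded protein in a cycle driven by ATP. J proteins (DNAJA, DNAJB, DNAJC) bring the client and trigger ATP hydrolysis, and HSP110 and BAG proteins release the nucleotide so that the cycle can start again. Small heat shock proteins hold unfolding proteins without ATP, HSP60 with its lid HSP10 folds proteins inside mitochondria, and HSF1 switches many of these genes on during heat or proteotoxic stress by binding heat shock elements, which are repeats of a short unit in alternating directions.

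Total counts were 33145684 to 48951937 per library, and 19540 to 24321 genes had a count. Atg14 had 329, 379 and 313 counts in HepKO replicates 1 to 3, against 620, 796 and 719 counts in WT replicates 1 to 3, a log2 fold change of -1.54 ± 0.16 (SE; edgeR quasi-likelihood test, adjusted p = 4.69e-04). HepKO replicate 1 stood apart from the other 5 libraries in its sex-linked transcripts: it had 30377 counts of Xist and at most 6 counts of each of 4 Y-linked genes, whereas the others had at most 22 counts of Xist and at least 571 of each Y-linked gene, so results are also given without it. The 9 hepatocyte markers with a match in the table summed to 41555 to 51985 CPM in HepKO and 107342 to 126635 CPM in WT. Alb made up most of each sum. Under the TMM scaling described below 8 of the 9 were called lower, beside 18.7% of all tested genes. With plain library totals 6 were called lower, beside 5.84%, and Hnf4a was at 0.16 and Apoa1 at -0.032 on the log2 scale. In whole liver, fewer cells of a type and less RNA per cell cannot be told apart.

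The choice of scaling mattered for direction. CPM values (a gene's share of a library's counts, scaled to a common library size) and fold changes use TMM scaling, here and above and the median log2 fold change (HepKO over WT) of the 16051 tested genes was then 0.0094. With plain library totals that median was 0.52, and every member's log2 fold change moved up by about as much. Genes whose Benjamini-Hochberg adjusted p over all tested genes (FDR) lay under 0.05 were called.

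Among the 63 tested chaperone genes, 7 were called higher and 13 lower in HepKO, while 43 were not called. That was 31.7% of the 63, beside 38.2% of all tested genes. Of all tested genes 19.5% were called higher and 18.7% lower, and among the chaperone genes the shares were 11.1% and 20.6%, so neither count stood far above what the liver transcriptome as a whole gave. The higher 7 were Hspb1, Hspa8, Hsph1, Dnajc2, Dnajc12, Dnajc27 and Hsf3. The lower 13 were Dnaja1, Dnaja3, Dnajc4, Dnajc11, Dnajc15, Dnajc19, Dnajc21, Dnajc22, Dnajc25, Dnajc28, Hspa4, Hspa9 and Bag4. The median log2 fold change over the 63 was -0.014, with 31 positive and 32 negative values, beside 0.0094 over all tested genes.

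With library totals, 34 of the 63 were called higher and 1 lower (46.4% and 5.84% of all genes). The median of the 63 was then 0.50, beside 0.52 over all genes. The 7 higher calls and the lower call of Bag4 were the 8 of the 20 calls that both scalings shared. Without HepKO replicate 1, 8 were called higher and 14 lower (16.3% and 17.5% of all genes), and all 20 calls were kept. The ranges of the groups did not overlap for 20 members with HepKO higher (27.0% of all genes) and 19 with HepKO lower (26.4%), where 53.4% of all genes did not overlap in either direction. Where an absolute log2 value of 1 or more was also asked for, 4 members were called higher (12.9% of all genes), Hspb1, Dnajc12, Dnajc27 and Hsf3, and 1 lower (5.74%), Dnajc28.

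**Figure D1:**
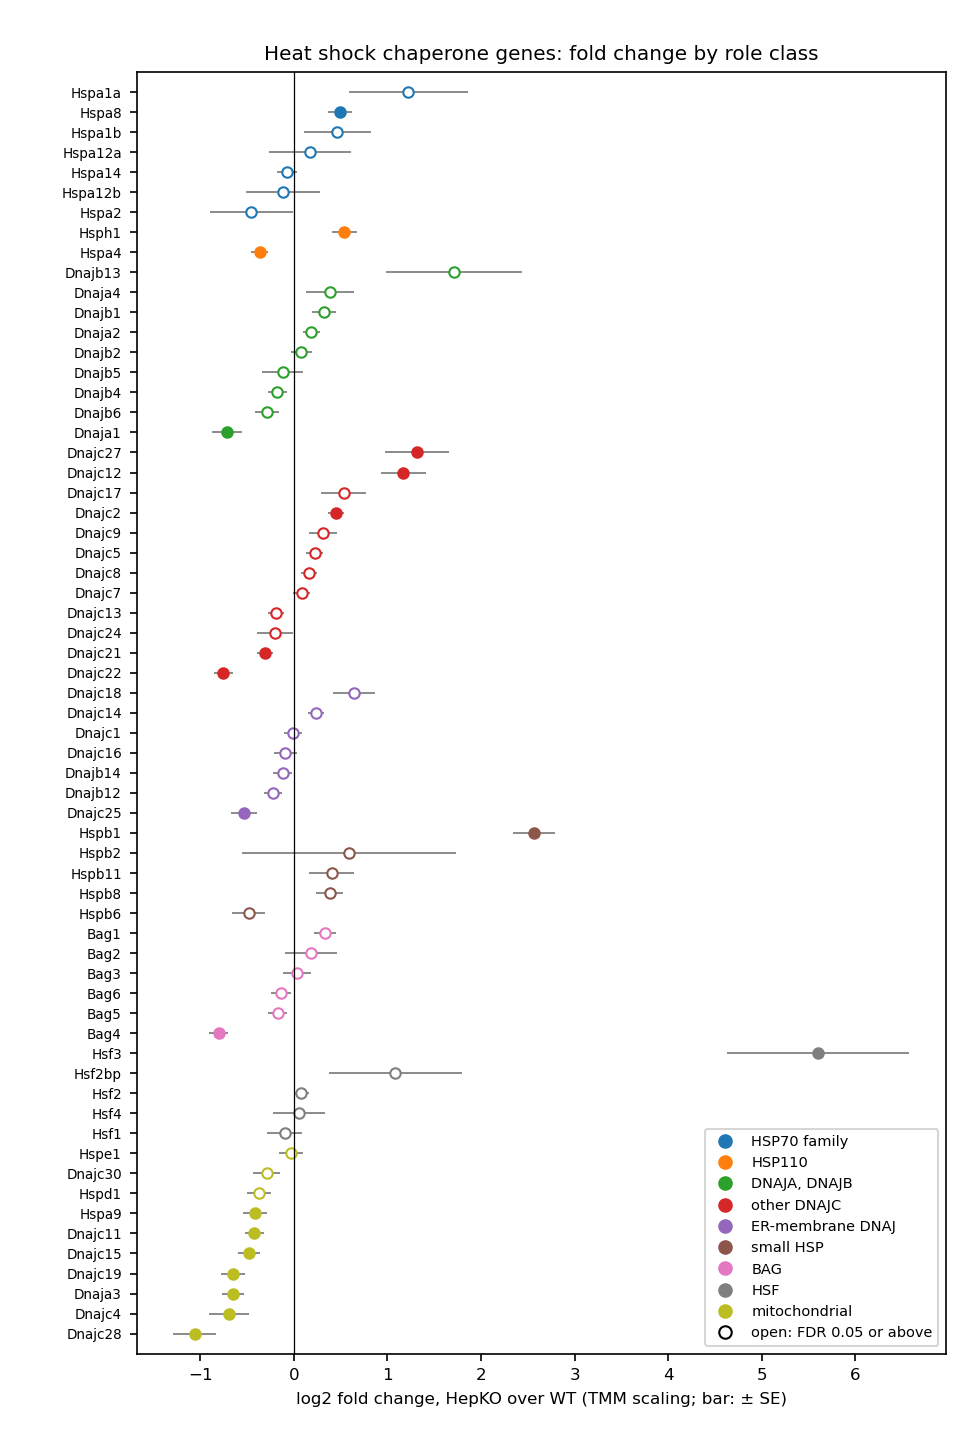
Log2 fold change (HepKO over WT, TMM scaling) of the 63 tested members on the x axis, grouped by role, with bars of ± SE; filled points had an FDR under 0.05. The 10 mitochondrial members at the bottom all lie below 0 (their median is -0.45, or 0.060 under library totals), Hspb1 lies at 2.57 and Hsf3, which had 1 count in all WT libraries together, lies at 5.60.

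The promoters were searched for exact copies of the recognition unit of HSF1, in those genes that have a promoter window. RefSeq gives a window of 250 bases before to 50 bases after a start site (GRCm38.p6) for 61 of the 75 genes, 79 windows in all. Hspa8, Hspa9, Bag4, Dnajc2, Dnajc11, Dnajc12, Dnajc22 and Hsf1 are among the genes without a window. Their promoters were not searched, so nothing is known here of their motifs. The search used 2 adjoining units, GAANNTTC or TTCNNGAA, each of which reads the same on both strands, and 3 adjoining units, GAANNTTCNNGAA or its reverse complement TTCNNGAANNTTC. Every 3-unit match contains overlapping 2-unit matches. The 2-unit motif lay in 24.1% of the members' windows and in 15.1% of all 32851 windows. The 3-unit motif lay in 7.59% of the members' windows and in 0.603% of all windows, and its 6 windows belonged to Hspd1, Hspe1, Hsph1 and Dnajb6. These windows are not separate sites. Those of Hsph1 overlap each other, as do those of Dnajb6, and 1 Hspd1 window shares 285 bases with that of Hspe1. The window of the other Hspd1 start held no motif. Shares of windows thus count some DNA more than once. Counted by gene, the 3-unit motif lay in 4 of 61 members and in 179 of all 27025 genes with a window.

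The 250 bases before the starts of Hspb1 and Hspa1b are shown because Hspb1 had the largest fold change among members above 1 CPM and Hspa1b is the stress-inducible HSP70 gene whose level did not pass the test. Capitals mark the 2-unit motifs. Hspb1 lies at chr5:135887919-135889563 on the plus strand and its stretch is chr5:135887669-135887918, with motifs starting 117 and 97 bases before the start. The Hspa1b stretch is chr17:34959239-34959488 on the minus strand, with 1 motif starting 104 bases before the start.
Hspb1: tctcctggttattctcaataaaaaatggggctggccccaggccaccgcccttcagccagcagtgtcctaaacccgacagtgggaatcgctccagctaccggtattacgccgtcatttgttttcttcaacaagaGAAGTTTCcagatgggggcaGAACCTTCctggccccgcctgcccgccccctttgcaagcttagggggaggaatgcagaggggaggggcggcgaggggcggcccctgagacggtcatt
Hspa1b: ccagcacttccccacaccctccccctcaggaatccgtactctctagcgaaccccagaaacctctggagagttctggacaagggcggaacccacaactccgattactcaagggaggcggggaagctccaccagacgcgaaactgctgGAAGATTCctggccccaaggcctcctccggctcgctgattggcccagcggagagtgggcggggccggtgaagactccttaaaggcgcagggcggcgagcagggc

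The 3-unit matches are shown as stretches of 30 bases, with overlapping motifs run together in capitals. The Hspe1 stretch is chr1:55088053-55088082 on the plus strand, and the same DNA lies in the window of the second RefSeq start of Hspd1, the gene that runs the opposite way from Hspe1. The Hsph1 stretch is chr5:149636279-149636308 on the minus strand, and the Dnajb6 stretch is chr5:29735844-29735873 on the plus strand. Relative to the RefSeq start of the window shown, the match begins at -89 for Hspe1 and -46 for Dnajb6. For Hsph1 it begins at 16, after the start and so inside the transcribed sequence.
Hspe1: ggtccgTTCTAGAACCTTCCGGAAggcccc
Hsph1: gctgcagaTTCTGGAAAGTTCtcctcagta
Dnajb6: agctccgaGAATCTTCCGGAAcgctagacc
Of the 4 genes with a 3-unit match, Hsph1 was called higher at a log2 fold change of 0.54, and Hspe1 at -0.031, Hspd1 at -0.37 and Dnajb6 at -0.28 were not called. Under library totals all 4 values were positive, at 1.05 for Hsph1, 0.48 for Hspe1 (both called higher), 0.14 for Hspd1 and 0.23 for Dnajb6, and differences between the genes were not tested.

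The HSP70 members of the cytosol were led by Hspa8, the constitutive HSC70, which carries most housekeeping folding and also delivers proteins to lysosomes. Hspa8 had 973, 975 and 937 CPM in HepKO, against 595, 768 and 691 CPM in WT. The groups did not overlap, and the log2 fold change was 0.49 ± 0.12 (1.41-fold; edgeR, FDR = 0.0167). The FDR was 0.055 without HepKO replicate 2, 0.0522 without WT replicate 1 and 0.0506 without WT replicate 3, so the call rested on those libraries.

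Hspa1a and Hspa1b, the paired stress-inducible HSP70 genes, had at most 6.12 CPM in any library, and neither was called. Their promoter windows were identical at 296 of 300 positions, and as near-identical copies they can share reads, so neither value alone is certain. Hspa1a had 0.550, 0.779 and 0.964 CPM in HepKO, against 0.473, 0.418 and 0.0878 CPM in WT. All of its HepKO values were above all of its WT values, at a log2 fold change of 1.22 ± 0.63 (edgeR, FDR = 0.164). Hspa1b had 2.34, 6.12 and 5.38 CPM in HepKO, against 2.97, 3.76 and 3.28 CPM in WT. For Hspa1b, HepKO replicate 1 was below all WT libraries and the other HepKO replicates were above them. Its log2 fold change was 0.46 ± 0.36 (edgeR, FDR = 0.341), and 0.78 (FDR = 0.0354) without HepKO replicate 1. The sum of both genes had a log2 fold change of 0.55 ± 0.33 (edgeR, FDR = 0.227).

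Of the other HSP70 relatives, Hspa14, Hspa2, Hspa12a and Hspa12b had log2 fold changes between -0.45 and 0.17 and overlapping groups, and none was called. Hspa1l, an HSP70 of male germ cells, had 40 counts in HepKO and 5 in WT over 3 libraries each and was not tested. It shares 1778 exon bases with the antisense gene Gm10501, whose reads cannot be told from its own without the strand setting of the counting.

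The exchange factors of the HSP110 family were called in opposite directions under TMM scaling, and under library totals Hspa4 was at 0.14 and not called. Hsph1, which encodes HSP105, had 59.4, 55.2 and 55.2 CPM in HepKO, against 31.7, 40.4 and 44.7 CPM in WT. Every HepKO library was above every WT library, at a log2 fold change of 0.54 ± 0.13 (edgeR, FDR = 0.0146), called with any 1 library left out. Hspa4, which encodes APG2, had 140, 153 and 148 CPM in HepKO, against 195, 181 and 194 CPM in WT. All HepKO values were below all WT values (-0.37 ± 0.09 on the log2 scale; edgeR, FDR = 0.0155, or 0.0601 without WT replicate 3).

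A ratio of counts within a library does not depend on the scaling. The Hsph1 to Hspa4 ratio was 0.426, 0.360 and 0.372 in HepKO, against 0.162, 0.224 and 0.231 in WT. The groups did not overlap, and the exact permutation test (2-sided) gave p = 0.1, the smallest that 3 against 3 allows. In all, 5 such ratios were computed, chosen after the values were seen, and the p adjusted over the 5 is 0.1 for each. The remaining member, Hspa4l, had 13 counts in HepKO and 2 in WT and was not tested.

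Among the J proteins of the DNAJA and DNAJB classes, 1 of 9 tested was called, Dnaja1, and it was lower. That was 11.1%, beside 18.7% of all tested genes called lower. Dnaja1, a general J protein partner of HSC70, had 177, 165 and 166 CPM in HepKO, against 227, 263 and 346 CPM in WT. The HepKO values lay close together and below a wide WT range, at a log2 fold change of -0.72 ± 0.16 (edgeR, FDR = 0.00889). Under library totals it was at -0.20 and not called. Dnaja1 shares 608 exon bases with Smu1 on the opposite strand.

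Dnaja2, the relative of Dnaja1, had 168, 153 and 162 CPM in HepKO, against 141, 136 and 148 CPM in WT (log2 fold change 0.19; edgeR, FDR = 0.145). The Dnaja1 to Dnaja2 ratio was therefore 1.05, 1.08 and 1.02 in HepKO, against 1.61, 1.94 and 2.34 in WT (exact permutation p = 0.1, the smallest possible). In HepKO the counts of both genes were nearly equal, and in WT those of Dnaja1 were higher in each library. Counts also grow with transcript length, so they do not rank these genes by level. Per kilobase of exon (RPKM), the mean of Dnaja2 was above that of Dnaja1 in both groups. It was 54.2 against 19.7 RPKM in HepKO and 47.6 against 32.3 RPKM in WT.

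Dnajb1, the stress-inducible HSP40, had 24.1, 19.7 and 24.3 CPM in HepKO, against 16.3, 18.5 and 19.6 CPM in WT. Its lowest HepKO library was just above its highest WT library, and it was not called (0.32 on the log2 scale; edgeR, FDR = 0.0802). The others, Dnaja4, Dnajb2, Dnajb4, Dnajb5, Dnajb6 and Dnajb13, had log2 fold changes between -0.28 and 1.71. The highest, Dnajb13, had at most 0.688 CPM and shares 305 exon bases with the abundant gene Ucp2.

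**Figure D2:**
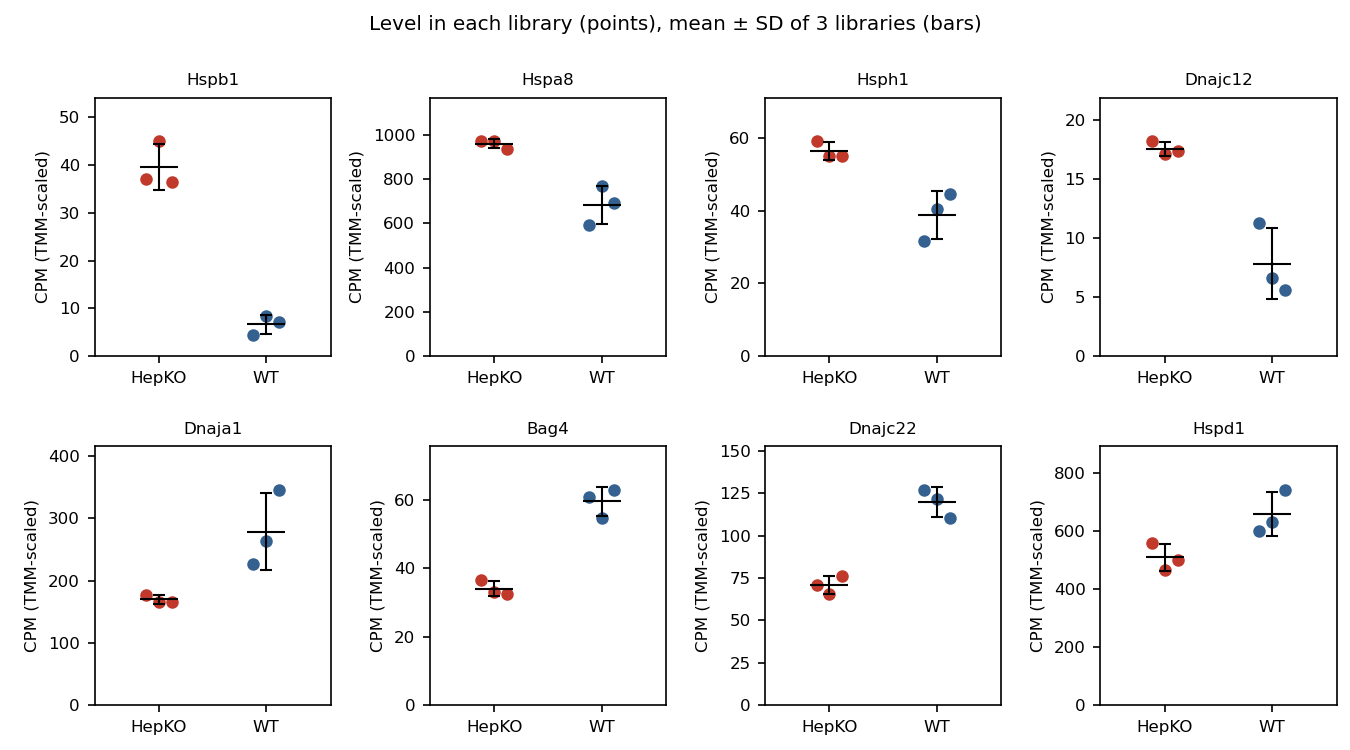
Level of 8 members in CPM (TMM-scaled) on the y axis from 0, with a point for each library, HepKO left and WT right, and bars for the mean ± SD of 3 libraries. Hspb1, Hspa8, Hsph1 and Dnajc12 lie higher in every HepKO library than in any WT library, and Dnaja1, Bag4, Dnajc22 and Hspd1 lie lower, though the log2 fold change of Hspd1 is 0.14 under library totals.

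Of the 12 tested DNAJC members with other or unassigned roles, 3 were called higher and 2 lower. These shares of 25% and 16.7% were near the 19.5% and 18.7% of all tested genes. Dnajc12, which in humans is a co-chaperone of phenylalanine hydroxylase and related enzymes, had 18.2, 17.1 and 17.3 CPM in HepKO, against 11.2, 6.60 and 5.62 CPM in WT. The HepKO values were close together and all above the WT values, with a log2 fold change of 1.17 ± 0.24 (edgeR, FDR = 0.00735). Dnajc27, a small GTPase with a J domain, had 1.94, 2.05 and 2.56 CPM in HepKO, against 1.18, 0.752 and 0.702 CPM in WT. Its log2 fold change was 1.32 ± 0.34 (edgeR, FDR = 0.0186), and the FDR was 0.0642 without HepKO replicate 3, 0.0547 without WT replicate 2 and 0.0617 without WT replicate 3. Both genes were also called higher under library totals.

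Dnajc2, a ribosome-associated J protein that acts on nascent chains, had a small difference with little spread. It had 41.0, 39.2 and 40.7 CPM in HepKO, against 30.6, 28.3 and 29.8 CPM in WT, a log2 fold change of 0.45 ± 0.09 (edgeR, FDR = 0.00505). Dnajc22, whose fly counterpart is needed for endocytosis in airways, had 71.0, 65.5 and 76.0 CPM in HepKO, against 127, 122 and 110 CPM in WT. All HepKO values were below all WT values (log2 fold change -0.76 ± 0.10; edgeR, FDR = 0.00112), and under library totals the value was -0.25 and not called.

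Dnajc21, which acts in the maturation of the large ribosomal subunit, was lower at -0.31 (edgeR, FDR = 0.0207), and at 0.20 and not called under library totals. It lost the call without HepKO replicate 3, WT replicate 2 or WT replicate 3. The 7 that were not called, Dnajc5, Dnajc7, Dnajc8, Dnajc9, Dnajc13, Dnajc17 and Dnajc24, lay between -0.20 and 0.53. The 7 J proteins assigned to the membrane of the endoplasmic reticulum held 1 call, Dnajc25, lower at -0.54 (edgeR, FDR = 0.0174). The share was 14.3%, beside 18.7% of all tested genes called lower. Under library totals Dnajc25 was at -0.026 and not called, and the call was lost without HepKO replicate 2 or 3.

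The small heat shock proteins held the largest fold change among members above 1 CPM. Hspb1, known as HSP27 in humans and HSP25 in mice, holds unfolding proteins and binds actin filaments. It had 37.0, 45.1 and 36.5 CPM in HepKO, against 4.46, 8.35 and 7.17 CPM in WT. The means were 39.5 ± 4.83 CPM in HepKO and 6.66 ± 2.0 CPM in WT (SD, n = 3 each), with a wide gap between the groups, a log2 fold change of 2.57 ± 0.22 or 5.92-fold (edgeR, FDR = 2.18e-04). With any 1 library left out it stayed between 2.35 and 2.79 and was called each time.

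A processed pseudogene of the same gene, Hsp25-ps1, moved with it. It had 45, 52 and 43 counts in HepKO, against 0, 4 and 3 counts in WT (edgeR, FDR = 0.00548), and reads of Hspb1 may map there. Summing the counts of both gave a log2 fold change of 2.59. The Hspb1 to Hspb8 ratio of counts was 0.162, 0.256 and 0.228 in HepKO, against 0.0341, 0.0537 and 0.0486 in WT (exact permutation p = 0.1, the smallest possible).

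Some markers of other liver cells were called higher in HepKO, in numbers that differed between the lists. The 6 cholangiocyte markers, 4 of them called higher, summed to 148 to 561 CPM in HepKO and 43.9 to 61.8 CPM in WT. Most of each sum came from Spp1, and the top of the HepKO range was replicate 2. Krt19 and Krt7 had overlapping groups and were not called. Of the 6 macrophage markers tested 5 were called higher. The list summed to 233 to 375 CPM in HepKO and 83.9 to 176 CPM in WT, with Trem2 at 4 counts in 1 library and 0 in the others. Of the 9 tested markers of smooth muscle and stellate cells 4 were called higher, and the list summed to 463 to 550 CPM in HepKO and 183 to 276 CPM in WT. The 6 endothelial markers, 1 called higher, summed to 147 to 187 CPM in HepKO and 128 to 160 CPM in WT, and the 6 T and B cell markers, 2 called higher, to 5.26 to 8.62 CPM in HepKO and 2.69 to 2.95 CPM in WT. Over all tested genes 19.5% were called higher. Under library totals that share was 46.4%, and 4 cholangiocyte, 6 macrophage, 6 smooth muscle and stellate, 4 endothelial and 2 T and B cell markers were called higher. The part of these cells in the Hspb1 difference was not tested. Skeletal muscle markers summed to at most 2.26 CPM in any library, with Myh4 at 0 throughout. The germ cell markers summed to at most 0.258 CPM, with Prm1, Prm2 and Tnp1 at 0.

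Hspb8, which with BAG3 sends aggregated proteins to autophagy, was the most abundant small heat shock protein. It had 228, 176 and 160 CPM in HepKO, against 131, 156 and 147 CPM in WT. The ranges nearly met and HepKO replicate 1 was well above the rest, and the log2 fold change of 0.38 ± 0.15 was not called (edgeR, FDR = 0.0761), nor was the 0.21 (FDR = 0.178) without HepKO replicate 1. Hspb6, known as HSP20, was at -0.48 (FDR = 0.0582, or 0.029 on the log2 scale under library totals) and Hspb11, a subunit of ciliary transport, at 0.40 (FDR = 0.225), neither called by edgeR. Hspb2, a small heat shock protein of muscle, had 0.258, 0.356 and 0.0761 CPM in HepKO, against 0, 0.418 and 0.0293 CPM in WT, and shares 252 exon bases with Cryab on the opposite strand.

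In the BAG family 1 of 6 genes was called, and it was lower (16.7%, beside 18.7% of all tested genes). Bag4, an HSP70 exchange factor also known as a silencer of death receptors, had 36.5, 33.1 and 32.4 CPM in HepKO, against 60.8, 54.7 and 63.0 CPM in WT. The groups were far apart, at a log2 fold change of -0.81 ± 0.10 (edgeR, FDR = 7.96e-04). Bag4 was the only member called lower under both scalings, at -0.29 (edgeR, FDR = 0.0278) with library totals. Bag3, the stress-inducible partner of HSPB8, had 28.5, 28.8 and 26.1 CPM in HepKO, against 21.2, 31.9 and 28.6 CPM in WT, with overlapping groups (0.031 on the log2 scale; edgeR, FDR = 0.896). Bag1, a partner of HSC70, was at 0.33 (edgeR, FDR = 0.0618), and Bag2, Bag5 and Bag6 lay between -0.17 and 0.18.

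Of the 5 tested genes in the heat shock factor class 1 was called, at very low counts. It was higher, a share of 20% beside 19.5% of all tested genes. Hsf1, the main stress regulator, had 7.98, 8.06 and 10.7 CPM in HepKO, against 8.21, 9.22 and 11.2 CPM in WT. The groups overlapped, and the log2 fold change of -0.10 ± 0.19 (0.41 under library totals) was not called (edgeR, FDR = 0.711). Hsf2, which pairs with HSF1 at heat shock elements, was at 0.079, and Hsf4, the factor of the lens, at 0.054, both not called. Hsf2bp was at 1.08 with at most 1.09 CPM and was not called either.

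Hsf3, an X-linked factor that in the mouse takes part in heat resistance, had 48, 15 and 29 counts in HepKO, against 0, 0 and 1 counts in WT. Every HepKO library had more counts than any WT library (edgeR, FDR = 0.00327). Scaled for depth the ratio was 64.4, with a 95% exact interval of 11.3 to 2571 that covers counting error only. It reached 0.334 to 0.826 CPM in HepKO and shares 29 exon bases with Heph, so its value is uncertain.

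Most mitochondrial chaperones were lower under TMM scaling and none was called lower under library totals. With TMM all 10 had negative log2 fold changes and 7 were called lower, a share of 70.0% beside 18.7% of all tested genes. Their median was -0.45. Under library totals the median was 0.060, with 1 called higher (Hspe1, 0.48), while the median over all genes was 0.52. All 10 lay below the median of all genes, by 0.040 to 1.07 under library totals. A change of scaling moves all genes by about the same amount, so the 2 scalings cannot differ in this position. Without HepKO replicate 1, 8 of the 10 were called lower (17.5% of all genes). The hepatocyte markers given above moved the same way under TMM scaling, and their part in this was not tested.

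Hspa9, the mitochondrial HSP70 mortalin, pulls proteins through the inner membrane and folds them. It had 649, 510 and 515 CPM in HepKO, against 747, 710 and 776 CPM in WT, all HepKO values below all WT values. The log2 fold change was -0.41 ± 0.13 (edgeR, FDR = 0.036) and 0.10 under library totals. The call was lost when any library other than HepKO replicate 1 was left out (FDR 0.0766 to 0.118), and without HepKO replicate 1 the value was -0.54 (FDR = 0.00598).

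Hspd1 and Hspe1, the HSP60 chaperonin and its HSP10 lid, are transcribed in opposite directions from neighbouring starts and share 112 exon bases. Hspd1 had 561, 467 and 501 CPM in HepKO, against 601, 632 and 744 CPM in WT. No HepKO library reached the lowest WT library, but the log2 fold change of -0.37 ± 0.13 was just short of the threshold (edgeR, FDR = 0.053), and 0.14 under library totals. Without HepKO replicate 1 Hspd1 was called lower, at -0.45 (edgeR, FDR = 0.0291). Hspe1 had 175, 137 and 144 CPM in HepKO, against 145, 149 and 172 CPM in WT. Its groups overlapped and it was not called (-0.031 on the log2 scale; edgeR, FDR = 0.873). Counts summed with those of their pseudogenes gave -0.37 for Hspd1 and -0.029 for Hspe1.

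Of the 7 mitochondrial J proteins 6 were called lower, with log2 fold changes between -1.06 and -0.42, and none under library totals. Over all tested genes the shares called lower were 18.7% and, under library totals, 5.84%. Dnajc28, whose role is not well described, had 6.71, 10.0 and 11.6 CPM in HepKO, against 18.2, 16.8 and 24.2 CPM in WT. The groups did not overlap, at a log2 fold change of -1.06 ± 0.23 (edgeR, FDR = 0.00811; -0.55 and not called under library totals). Dnaja3, the main J partner of mortalin, had 82.7, 72.3 and 83.2 CPM in HepKO, against 127, 110 and 138 CPM in WT (-0.65 ± 0.12 on the log2 scale; edgeR, FDR = 0.00361). Dnajc19, a J protein of the import motor, had 36.0, 28.4 and 37.4 CPM in HepKO, against 49.7, 52.1 and 57.8 CPM in WT (-0.65 ± 0.13 on the log2 scale; edgeR, FDR = 0.00555). Both stood at -0.14 and were not called under library totals. Dnaja3 shares 153 exon bases with Coro7 and 160 with Vasn, and Dnajc19 shares 178 with Fxr1.

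Dnajc15, a regulator of the same import motor, was lower at -0.48 (edgeR, FDR = 0.0159), and Dnajc11, which is tied to the cristae-organising complex, at -0.42 (edgeR, FDR = 0.0124). Under library totals they were at 0.032 and 0.089 and were not called. Dnajc15 lost the call without HepKO replicate 2, HepKO replicate 3 or WT replicate 3, and Dnajc11 without WT replicate 3. Dnajc4 was lower at -0.70 (edgeR, FDR = 0.0342; -0.19 and not called under library totals), a call kept without HepKO replicate 1 and lost without any other library. Dnajc30, a factor for the respiratory chain, was not called at -0.29 (edgeR, FDR = 0.15).

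The ratio of mitochondrial HSP counts to those of Hspa8 is free of the scaling question, but Hspa8 is its only cytosolic gene. Under TMM scaling Hspa8 was called higher, while the cytosolic Hspa4 and Dnaja1 were called lower. Ratios of the mitochondrial counts to those genes were not computed, so the ratio does not speak for cytosolic HSPs in general. Summed counts of Hspa9, Hspd1 and Hspe1 over those of Hspa8 were 1.42, 1.14 and 1.24 in HepKO, against 2.51, 1.94 and 2.45 in WT. The highest HepKO value was below the lowest WT value, and the exact permutation p was 0.1, the smallest possible.

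**Figure D3:**
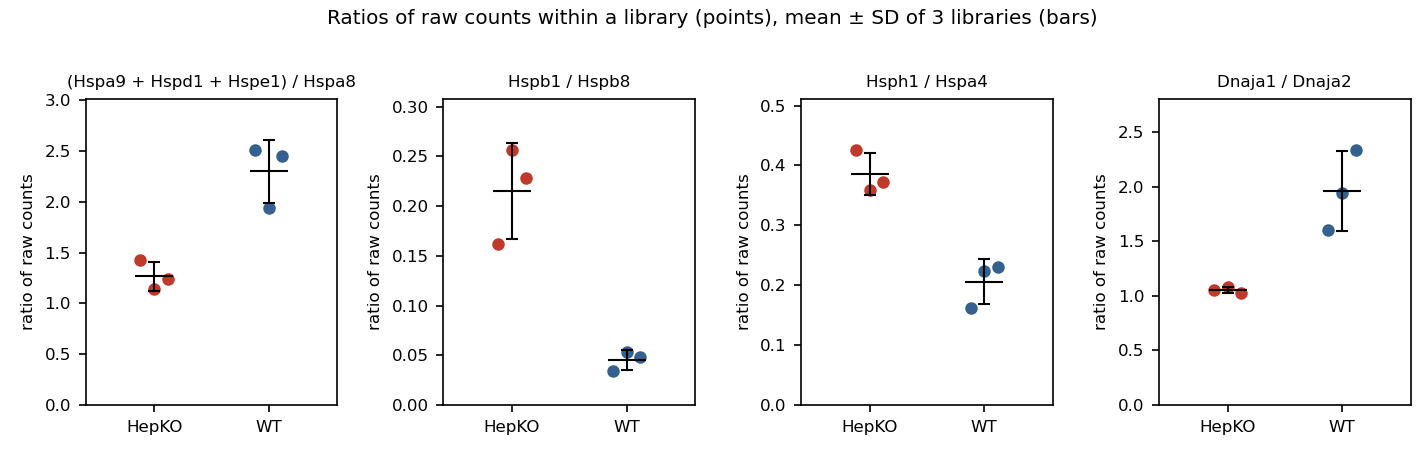
Ratios of raw counts within each library on the y axis from 0, with HepKO left, WT right, a point for each library and bars for the mean ± SD of 3 libraries. The ratio of mitochondrial HSPs to Hspa8 is 1.14 to 1.42 in HepKO and 1.94 to 2.51 in WT, Dnaja1 to Dnaja2 is also lower in HepKO, and Hspb1 to Hspb8 and Hsph1 to Hspa4 are higher.

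Levels were compared between genes per kilobase of exon (RPKM on the TMM scale). Hspa8 was the highest member in HepKO at 224 ± 4.90 RPKM and 3rd in WT at 159 ± 20.2 RPKM, and Hspd1 was 2nd in HepKO at 193 ± 18 RPKM and 1st in WT at 249 ± 28.6 RPKM (SD, n = 3 each). Hspa9 was 3rd in HepKO at 130 ± 18.4 RPKM and 2nd in WT at 173 ± 7.69 RPKM. In HepKO the ranges of Hspd1 and Hspa9 did not meet, and in WT those of Hspa9 and Hspa8 overlapped. Hspe1 at 103 and 105 RPKM in HepKO and WT, Hspb8 at 96.5 and 74.1 RPKM, and Bag1 at 83.1 and 66.0 RPKM held the next ranks in both groups. Hspb1 was 8th in HepKO at 38.4 ± 4.68 RPKM and 27th in WT at 6.46 ± 1.94 RPKM.

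The 5 highest members over all libraries made up 57.7% to 60.2% of the members' summed RPKM in HepKO and 56.7% to 59.2% in WT. Hspb1 contributed 2.62% to 3.58% in HepKO and 0.348% to 0.627% in WT. The 75 genes together held 0.50% to 0.545% of a HepKO library's counts and 0.361% to 0.401% of a WT library's counts, a share that depends on the other transcripts in the library.

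**Figure D4:**
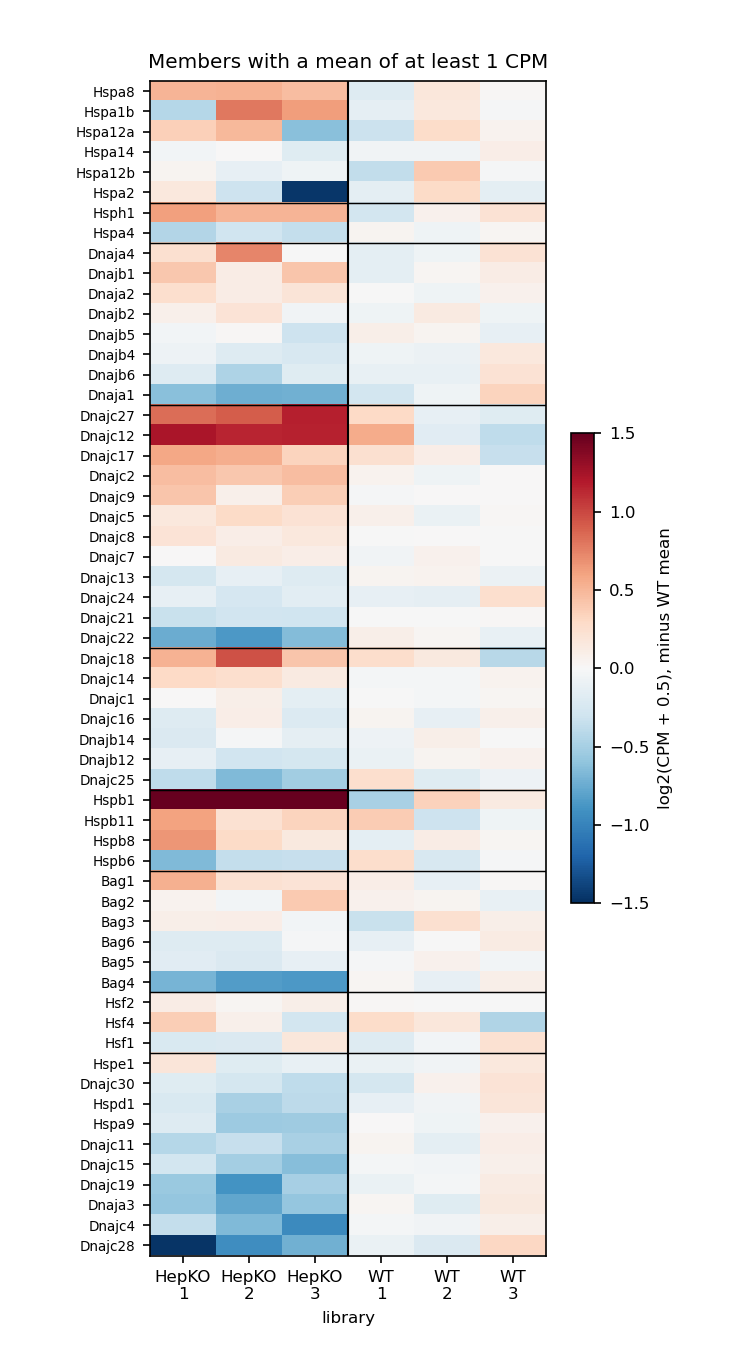
Each row is 1 of the 58 tested members with a mean of at least 1 CPM, in the same role order as the fold changes, and each column a library, HepKO left and WT right. Colour gives log2(CPM + 0.5) minus the WT mean and is cut at 1.5 either way; the mitochondrial rows at the bottom are mostly blue in HepKO under this TMM scaling (their median is 0.060 under library totals), with Hspe1 in HepKO replicate 1 an exception, and the HSP70 rows are mixed.

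The 12 members that were not tested had at most 26 counts in any library. Dnajb8, Dnajc5b, Dnajc5g, Hspb3 and Hspb9 had 0 counts in all 6 libraries, which allows up to 3 counts a library. The others were Dnajb3, Dnajb7, Dnajc6, Hsf5, Hspb7 and the Hspa1l and Hspa4l given above.

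Among HSP90 and its co-chaperones, 1 of 20 genes was called higher and 5 lower, with a median of -0.017. The shares were 5% and 25%, beside 19.5% and 18.7% of all tested genes. The one higher was Hsp90aa1, the stress-inducible cytosolic HSP90, at 333, 326 and 374 CPM in HepKO, against 130, 158 and 172 CPM in WT (log2 fold change 1.17 ± 0.13; edgeR, FDR = 5.39e-04). Hsp90ab1, the constitutive form, was not called at 0.20 (edgeR, FDR = 0.195). Their ratio of counts was 0.293, 0.284 and 0.310 in HepKO, against 0.142, 0.148 and 0.165 in WT (exact permutation p = 0.1, the smallest possible). The smallest p-values among the lower genes were those of Fkbp5 at -1.14 and Fkbp4 at -0.58, steroid receptor co-chaperones that were at -0.63 and -0.068 under library totals.

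The mitochondrial proteases, prohibitins and import motor held 7 lower calls and 1 higher among 16 genes, with a median of -0.31. The lower share was 43.8%, beside 18.7% of all tested genes, and the higher share 6.25%, beside 19.5%. The exchange factors of mortalin, Grpel1 and Grpel2, were lower at -0.57 and -0.92 (edgeR, FDR = 0.0022 and 0.00111), and Phb2 was lower at -0.64. The higher one was the protease chaperone Clpx at 0.64 (FDR = 0.0167). Under library totals 3 were called higher and 1, Grpel2, lower (46.4% and 5.84% of all genes).

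In the cytosolic chaperonin and prefoldin list 2 of 14 genes were called higher and 2 lower, with a median of 0.13. Each share was 14.3%, beside 19.5% and 18.7% of all tested genes. Tcp1, a chaperonin subunit, was at -1.03 (edgeR, FDR = 2.53e-04), apart from the other 7 chaperonin subunits, which were between -0.17 and 0.23 and not called. Pfdn1 at 0.39 and Vbp1 at 0.36, prefoldin subunits, were called higher. A list of 15 genes known as HSF1 targets, none of them members, shares genes with the HSP90 and chaperonin lists above. The shared genes are Hsp90aa1, Hsp90ab1, Ahsa1, Chordc1, Stip1, Fkbp4 and Tcp1. Of the 15 genes 5 were called higher and 4 lower, with a median of 0.20. These shares were 33.3% and 26.7%, beside the same 19.5% and 18.7%. Serpinh1, the collagen chaperone HSP47, was at 1.82 ± 0.15 (edgeR, FDR = 2.12e-04), with 18.6, 25.7 and 25.3 CPM in HepKO, against 6.62, 6.91 and 6.20 CPM in WT. The 4 lower genes of that list were Tcp1, Fkbp4, Mrpl18 at -0.33 and Chordc1 at -0.30, and Hsp90aa1 was among the higher 5. Under library totals Mrpl18 and Chordc1 were at 0.18 and 0.21 and not called. The collagen genes Col1a1 and Col3a1 were also called higher, at 2.81 and 2.55, and a link to Serpinh1 was not tested.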

How the data were processed

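The authors deposited raw read counts per gene. The tools named, per the submitters' processing notes, are STAR 2.7.11a, Subread 2.0.0 with featureCounts, bcl2fastq and edgeR 3.40.2, and the build is mm10; per the labels' protocols the library kit was stranded. Neither the annotation nor whether featureCounts used strand is given in the sources used here, so 30 members that share exon bases with another gene are uncertain to that extent. Of 56350 Ensembl IDs, 55480 matched GENCODE M21 (55180 with version). The 14 further symbol matches were processed pseudogenes and no members.

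Counts were tested with edgeR 4.0.16 (R 4.3.3): filterByExpr, TMM factors (1.19 to 1.21 in HepKO, 0.824 to 0.860 in WT), quasi-likelihood test on group, Benjamini-Hochberg over 16051 genes, called under 0.05. SE is the log2 fold change over the square root of F. DESeq2 1.42.0 and limma 3.58.1 gave alternatives. RPKM used merged exon lengths. The fit was checked on simulated data in which few genes changed, in both directions. That check cannot judge the choice of scaling, because its libraries had no broad shift between groups. Replicates differed from each other by more than sampling noise (chi-square over its degrees of freedom, 26.6 to 131). Values per library are given for called members above 1 CPM whose absolute log2 fold change was 1 or more, the 5 highest per length, Hsf1, and members that in 1 library reached 5 times the median of the others; other members so shown were chosen after their values were seen. Of other pathway lists, the 3 smallest p-values and the HSP90 pair are named, and any further gene there was chosen afterwards too. Members, lists and tests were chosen with earlier results of these data known.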

Additional observations from a re-analysis of the deposited data

How the results depend on the processing

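Of the 20 member calls, all were kept with DESeq2, with RLE factors, with TMM factors computed without the 20 most abundant genes, with limma-voom and without HepKO replicate 1. At least 1 CPM in 3 libraries kept 19 (Hsf3 was not tested), no filter 19 and library totals 8. The replicate numbers did not pair the samples (correlations of same-numbered deviations of -0.15, -0.12 and 0.040, and not every library correlated best with its own number); the replicate block kept 16 of the 20 calls, 6 higher and 10 lower, and lost Dnajc4, Hspa9, Dnajc21 and Dnajc27. With Dnajc18, which was not called without the block, 7 members were then called higher and 10 lower. Leaving out 1 library kept 12 (without WT replicate 3) to 20 calls.

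Members called higher numbered 34 with library totals, 4 at an FDR under 0.01, 4 at an absolute log2 value of 1 or more, and 5 to 8 with 1 library left out. Members called lower numbered 1, 6, 1 and 7 to 14. The median log2 fold change over all tested members, called or not, was 0.50 with library totals and -0.047 to 0.12 with 1 library left out. All genes called numbered 3444 at an FDR under 0.01, 2985 at an absolute log2 value of 1 or more, and 4392 to 5587 with 1 library left out. Those higher numbered 7442 with library totals, 1751, 2063 and 2337 to 2816, and those lower 937, 1693, 922 and 2055 to 2896.

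For HSP90 and co-chaperones, library totals gave a median of 0.49, 13 higher and 1 lower; leaving out 1 library gave -0.059 to 0.0096, 1 to 2 higher and 3 to 5 lower. For chaperonin and prefoldin, library totals gave 0.64, 11 and 1, and leaving out 1 library 0.052 to 0.16, 0 to 2 and 1; 1 was lower with DESeq2, RLE factors, limma-voom, the 1 CPM filter and no filter, 1 was higher with no filter and 0 with the replicate block. For mitochondrial proteases and import, library totals gave 0.21, 3 and 1, and leaving out 1 library -0.39 to -0.25, 0 to 1 and 4 to 9. For other HSF1 targets, library totals gave 0.71, 10 and 1, the replicate block 2 lower, and leaving out 1 library 0.14 to 0.27, 5 to 6 and 2 to 3. Library totals move the median of all genes by construction; for the other settings the cause was not tested.

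Under library totals 24 negative log2 fold changes turned positive: Bag5 0.34, Bag6 0.37, Dnajb4 0.34, Dnajb5 0.39, Dnajb6 0.23, Dnajb12 0.29, Dnajb14 0.39, Dnajc1 0.50, Dnajc11 0.089, Dnajc13 0.32, Dnajc15 0.032, Dnajc16 0.42, Dnajc21 0.20, Dnajc24 0.31, Dnajc30 0.22, Hsf1 0.41, Hspa2 0.051, Hspa4 0.14, Hspa9 0.10, Hspa12b 0.38, Hspa14 0.44, Hspb6 0.029, Hspd1 0.14 and Hspe1 0.48. Dnajc1 was at 0.013 with the 1 CPM filter. With 1 library left out, uncalled values near 0 changed sign and ranged over -0.0019 to 0.28 for Bag2, -0.12 to 0.18 for Bag3, -0.072 to 0.039 for Dnajc1, -0.26 to 0.052 for Hsf1, -0.14 to 0.21 for Hsf4, -0.091 to 0.50 for Hspa12a, -0.35 to 0.23 for Hspa12b, -0.12 to 0.0016 for Hspa14 and -0.15 to 0.070 for Hspe1.

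Depth limits the members below 1 CPM, whose values rest on few reads.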

Other observations

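The 6 relatives inside the endoplasmic reticulum that the symbol rule left out held 1 higher and 1 lower call. Each was a share of 16.7%, beside 19.5% and 18.7% of all tested genes. Dnajc10, a reductase with a J domain, had 62.9, 70.8 and 69.4 CPM in HepKO, against 41.2, 42.5 and 35 CPM in WT. Its groups did not overlap, and the log2 fold change was 0.78 ± 0.11 (edgeR, FDR = 0.00127; called higher under library totals too). Dnajb11, a partner of the reticulum's HSP70, had 62.2, 61.6 and 66.7 CPM in HepKO, against 77.4, 74.6 and 81.4 CPM in WT (-0.29 on the log2 scale; edgeR, FDR = 0.0307), and was at 0.22 and not called under library totals.

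Of the other HSF1 targets, Rgs2, a regulator of G protein signalling, had 18.6, 21.2 and 20.9 CPM in HepKO, against 4.02, 5.96 and 2.57 CPM in WT (log2 fold change 2.27; edgeR, FDR = 7.53e-04). Zfand2a, which binds the proteasome under arsenite stress, had 19.6, 21.4 and 20.6 CPM in HepKO, against 10.6, 12.2 and 12.8 CPM in WT (log2 fold change 0.79; edgeR, FDR = 0.00155). The groups did not overlap for either gene, and both were also called higher under library totals.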
